A study of Mus musculus with 2 samples.

Results

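The mitochondrial ribosomal protein genes are the nuclear genes whose symbols start with Mrpl (large subunit) or Mrps (small subunit) followed by a number. The members were picked by symbol alone, but the family itself was chosen with earlier results of these data known. The deposited table held 77 such genes among 24369, 48 Mrpl and 29 Mrps, and all 77 were annotated as protein coding. Type II pneumocytes, the surfactant-making cells of the alveolus, were isolated from wild-type (WT) mice of strain C57BL6 at postnatal day 7 (P7) and day 28 (P28). Each age was 1 RNA-seq library, so no difference below has a replicate check and no p-value is given. The labels state neither the sorting markers, nor how many mice were pooled, nor the sex of the mice. Xist, the RNA of the inactive X chromosome, stood at 52.7 RPKM at P7 and 0.245 RPKM at P28, while Y-linked Ddx3y stood at 0 and 4.01 RPKM. Age and sex therefore cannot be told apart in any comparison of these libraries.

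The mitochondrial ribosome makes the few proteins that mitochondrial DNA encodes, all of them subunits of the respiratory chain or of ATP synthase. Its RNAs come from mitochondrial DNA, whereas its proteins are encoded in the nucleus, made in the cytosol and imported. The small subunit binds the messenger RNA and decodes it, and the large subunit joins the amino acids and passes the chain to an exit tunnel at the inner membrane. Type II pneumocytes are rich in mitochondria and spend much energy on making and storing surfactant.

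Values were RPKM, reads per kilobase of transcript scaled to the depth of the library, which allows levels to be compared between genes of different length. Of the low values of genes with a single annotated transcript length, 61.5% at P7 and 59.2% at P28 fell on steps of whole reads, and read numbers were recovered from those steps. One read on a transcript of 1 kilobase was worth 0.0568 RPKM at P7 and 0.0407 RPKM at P28, and the denominators came to 17600000 and 24600000 reads. The mitoribosomal protein genes held 11 to 360 reads each at P7 (median 77) and 19 to 908 at P28 (median 108). Genes of all kinds in the same RPKM range had more, with medians of 155 and 200 reads. A 95% interval on each P28 to P7 ratio of RPKM, with nothing added to the values, was taken from the read numbers by the exact Clopper-Pearson method. It covers counting error only, since reads from amplified libraries are not independent molecules and the spread between mice is not in it.

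The 2 libraries differed in more than age and apparent sex. All 8 type 2 markers were higher at P28, with a summed level of 16586 RPKM at P7 and 29205 RPKM at P28. All 5 airway club cell markers were also higher (7222 and 18966 RPKM summed). All 6 endothelial markers were lower (36.02 and 13.5 RPKM), as were all 6 proliferation genes (48.6 and 16.1 RPKM), 5 of 6 type 1 markers (294 and 180 RPKM) and 4 of 6 fibroblast markers (16.2 and 8.56 RPKM). Of the 6 macrophage and leukocyte markers 2 were at 0 in both libraries (2.79 and 2.60 RPKM summed). The 3 erythroid markers summed to 23.6 RPKM at P7 and 0.620 RPKM at P28, and the 5 ciliated cell markers to 92.6 and 103 RPKM. The part of these other cells in the values below was not tested, and in RNA from many cells fewer cells of a type and less RNA per cell cannot be told apart.

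The mitoribosomal protein genes were expressed at low, graded levels in both libraries. At P7 they ranged from 0.552 to 17.4 RPKM with a median of 3.37, and at P28 from 0.564 to 17.6 RPKM with a median of 3.15. The highest was 31.5 times the lowest at P7 and 31.2 times at P28, although the proteins belong to 1 particle. Summed over all 77, the level was 318 RPKM at P7 and 324 RPKM at P28, a ratio of 1.02. The total of all genes was 1.32 times higher at P28, so their share of all RPKM was 0.293% at P7 and 0.226% at P28. Such a share also depends on the most abundant genes. The type 2 and airway club markers took 15.3% and 6.64% of all RPKM at P7, and 20.4% and 13.3% at P28.

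**Figure D1:**
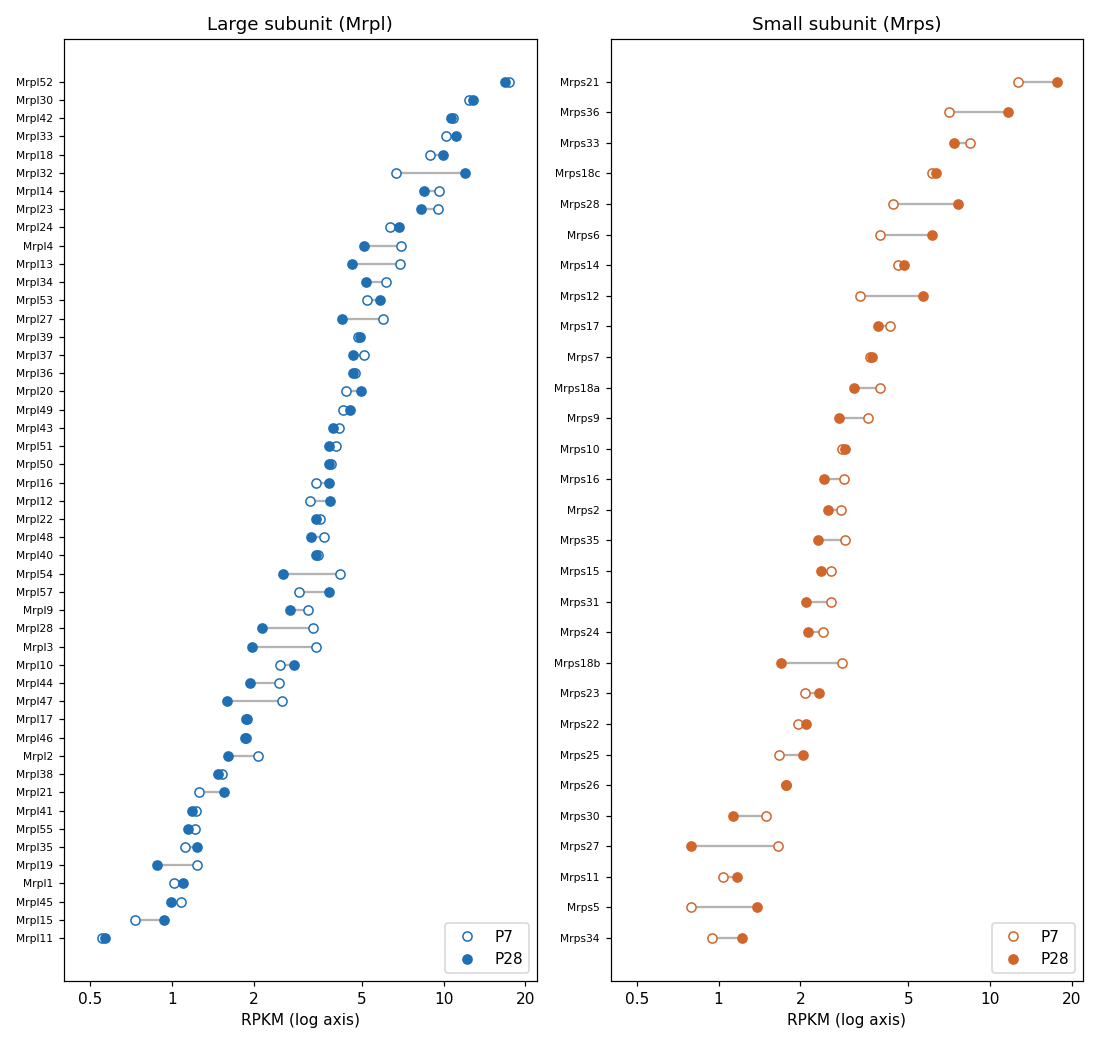
RPKM on a log axis of each of the 48 large subunit and 29 small subunit genes at P7 (open circles) and P28 (filled circles), 1 library each. The order along the axis is largely shared, from Mrpl52 and Mrps21 at the top to Mrpl11 at 0.552 and 0.564 RPKM, and the small subunit has the longer bars near its top.

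Mrpl52, a protein specific to mitochondria, was the most abundant message at P7, with 17.4 RPKM against 16.8 RPKM at P28. Mrps21, the counterpart of bacterial S21, was second at P7 with 12.7 RPKM and first at P28 with 17.6 RPKM. By the mean of both ages, Mrpl30 (12.4 and 12.9 RPKM), Mrpl42 (10.8 and 10.6 RPKM) and Mrpl33 (10.2 and 11.1 RPKM) followed in the large subunit, although at P28 Mrpl32 was above Mrpl42 and Mrpl33. In the small subunit, Mrps36 (7.06 and 11.6 RPKM), Mrps33 (8.42 and 7.38 RPKM) and Mrps18c (6.11 and 6.32 RPKM) came next by mean, with Mrps28 above Mrps33 and Mrps18c at P28. Mrps36 carries a ribosomal name but is known as a component of the 2-oxoglutarate dehydrogenase complex of the citric acid cycle.

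At the low end of the large subunit were Mrpl11 (0.552 and 0.564 RPKM), a protein at the base of the factor-binding stalk, Mrpl15 (0.730 and 0.929 RPKM) and Mrpl45 (1.07 and 0.987 RPKM), which tethers the particle to the inner membrane. The lowest small subunit genes by mean level were Mrps34 (0.948 and 1.22 RPKM), Mrps5 (0.792 and 1.39 RPKM) and Mrps11 (1.03 and 1.17 RPKM). Mrpl11 and Mrpl15 stayed under 1 RPKM in both libraries and were left out of medians of the log2 ratio, which cover the other 75.

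Ranks were largely kept between ages. Spearman's rho of P7 against P28 RPKM was 0.949 across the 77 genes, 0.962 across the large and 0.931 across the small subunit genes. These are correlations across genes, which are not independent replicates and share the same transcript length in both libraries. Of the 10 highest genes at P7, 9 were among the 10 highest at P28. The 5 highest held 19.97% of the summed RPKM at P7 and 21.9% at P28.

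The shorter the message, the higher its level per kilobase tended to be. Across the 77 genes, mean RPKM and transcript length had a rho of -0.52, against -0.05 across the 9282 genes tested whose length could be matched. Among the 64 genes whose read numbers were whole in both libraries the rho was -0.54. The lengths of these 64 were worked out from reads and RPKM, close to an annotated length, so this value is no separate check. Transcripts of 2000 bases or more numbered 22, and the highest mean level among them was 9.34 RPKM, that of Mrpl32. Mrps21, at about 407 bases, and Mrpl52, at 412 bases, were the most abundant genes and were also short. The log2 ratio between ages had little relation to length (rho -0.07) or to level (0.11).

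**Figure D2:**
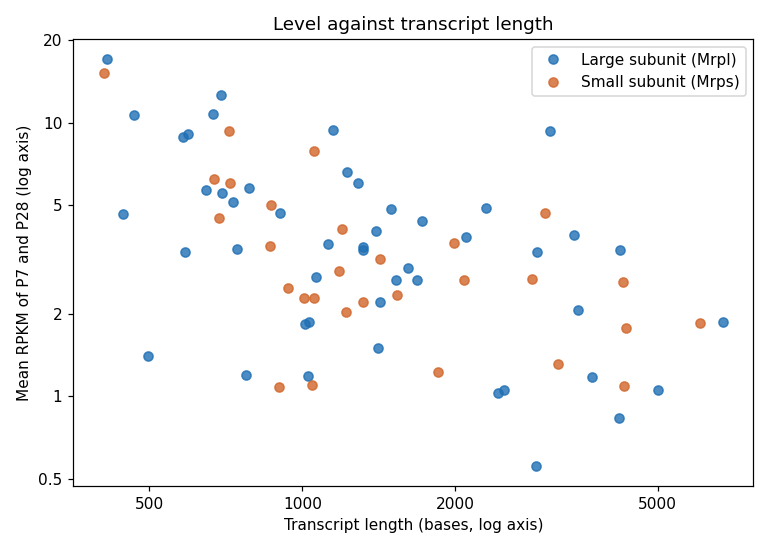
Mean RPKM of P7 and P28 against transcript length, both on log axes, for each large subunit (blue) and small subunit (orange) gene. Points above 10 RPKM lie at the short end, and Mrpl32, at 3072 bases and 9.34 RPKM, stands above the other long transcripts.

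Between the ages the large and small subunit genes had slightly different totals. Large subunit genes summed to 217 RPKM at P7 and 210 RPKM at P28 (ratio 0.971), and small subunit genes to 101 and 113 RPKM (ratio 1.12). The mean large subunit gene stood at 4.52 and 4.38 RPKM and the mean small subunit gene at 3.49 and 3.90 RPKM. Their ratio was 1.29 at P7 and 1.12 at P28. Mrps21 made up 12.5% of the small subunit sum at P7 and 15.5% at P28, and Mrps36 6.97% and 10.3%. Subunits were assigned by symbol, so the small subunit values include Mrps36, and Mrps30 and Mrps18a, which sit in the large subunit. Mitoribosomal proteins with other symbols, such as Dap3 of the small and Gadd45gip1 of the large subunit, are in neither sum. The 6 of these in the table summed to 18.7 RPKM at P7 and 15.8 RPKM at P28.

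No mitoribosomal protein gene differed 2-fold on the scale of log2(RPKM + 1). Among the 75 that reached 1 RPKM in either library, 0 passed 2-fold upwards and 0 downwards. Of the 9653 genes tested, 1.18% passed upwards and 1.96% downwards, shares that would place few genes among 75. On the same scale, 59 of the 75 (78.7%) lay within 1.25-fold either way, against 66.7% of all genes tested. By the plain ratio of RPKM the count was 50 of 75, or 66.7%, against 53.3%. By that plain ratio Mrps27 was 2.09-fold lower at P28. Of all 77 genes, 34 were higher and 43 lower at P28, beside 3789 higher and 5864 lower of the 9653 genes tested. For the 77 the split was 18 to 30 in the large and 16 to 13 in the small subunit. When both libraries were rescaled to the same total, 1 large and 6 small subunit genes were higher. On that scale the median log2 ratio of all genes tested was -0.37, so most genes of any kind were lower.

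The median log2 ratio was -0.03 in the large subunit (quartiles -0.19 and 0.08) and 0.03 in the small (-0.18 and 0.19). Over all genes tested it was -0.08. The large subunit thus stood 0.05 and the small 0.11 above the median of all genes. Rescaling to equal totals moved the median of all genes to -0.37, a shift of -0.29, and those of the large and small subunit to -0.33 and -0.28. With totals set equal only outside the 10 most abundant genes of either library, these medians were -0.10, -0.05 and 0.003. The spread was wider in the small subunit, with an SD across genes of 0.325 in log2 against 0.239. On this scale 38 of 46 large (82.6%) and 21 of 29 small subunit genes (72.4%) lay within 1.25-fold. By the plain ratio of RPKM, which gives more weight to low genes, 35 of 48 large (72.9%) and 16 of 29 small (55.2%) did.

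The number that a gene carries gives its kinship, since low numbers follow the bacterial proteins and later ones are mostly specific to mitochondria. The median log2 ratio was -0.02 for large subunit genes with bacterial numbers (26 tested) and -0.04 for those with later numbers (20). In the small subunit the medians were 0.03 (16 genes) and 0.00 (13 genes).

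Counting intervals separated 20 genes from a ratio of 1. They lay above 1 for 9 genes, 2 of 48 large (4.17%) and 7 of 29 small (24.1%), and below 1 for 11, 8 large (16.7%) and 3 small (10.3%). Among all genes tested with read numbers, 18.3% lay above 1 and 33.2% below, and among those in the RPKM range of these genes 15.6% and 33.0%. As deposited, the small subunit share above 1 exceeded that background and the large subunit share was under it. Both subunits were under the background below 1. The mitoribosomal genes had fewer reads than other genes in their RPKM range, and fewer reads widen the intervals. The background shares are therefore not matched for read number. With equal totals 1 gene, Mrpl32, stayed above 1, against 5.14% of all genes tested and 3.92% of those in the same RPKM range, while 38 lay below, against 67.8% and 67.9%. With the median of all genes set to 0, 3 large and 7 small (24.1%) lay above, against a background of 25.4%, or 22.6% in the RPKM range. On that scale the small subunit share above 1 was close to the background. Below 1 lay 4 large and 2 small, against 24.6% in both. Whether the subunits differ from each other cannot be tested with 1 library per age.

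**Figure D3:**
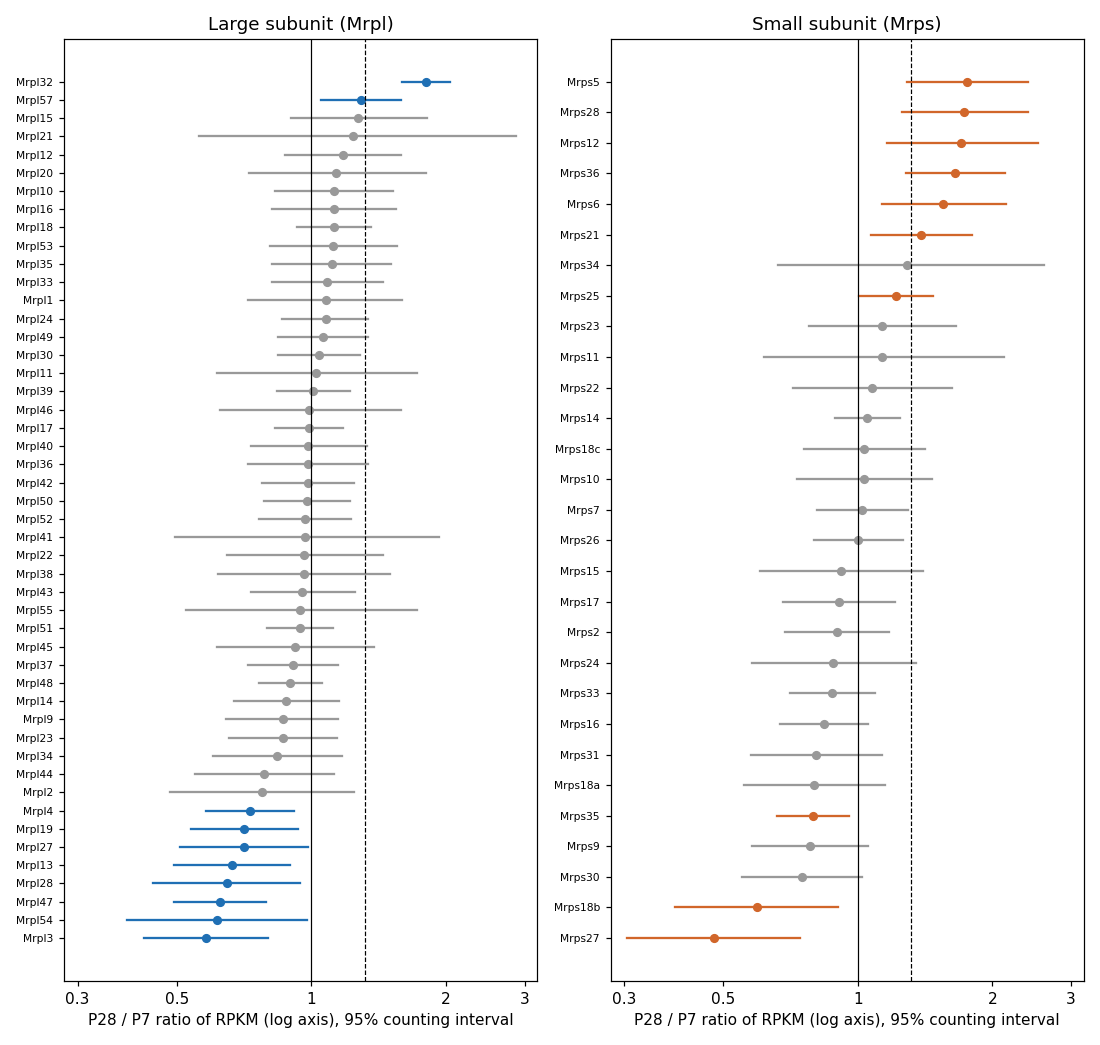
Ratio of P28 to P7 RPKM with its 95% counting interval on a log axis for each gene, in order of ratio. Coloured bars do not cross 1 and grey bars do. The dashed line at 1.32 is the ratio of the libraries' total RPKM, which only the Mrpl32 bar clears from above.

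The exit tunnel group held the gene that stood furthest above 1. Mrpl32, on the minus strand of chromosome 13 (14608184 to 14613165, GRCm38), codes for a protein that is cut to its mature form by the m-AAA protease before it joins the large subunit. It stood at 6.65 RPKM (360 reads) at P7 and 12.02 RPKM (908 reads) at P28, a ratio of 1.81 (1.60 to 2.05), and at 1.37 (1.21 to 1.56) with equal totals. Its rank among the 77 was 13 at P7 and 4 at P28. The other 9 exit tunnel genes included 2 whose intervals lay below 1, beside 33.2% of all genes tested with read numbers. These were Mrpl4 (6.97 and 5.09 RPKM, ratio 0.730, 0.582 to 0.915) and Mrpl47 (2.54 and 1.59 RPKM, ratio 0.624, 0.492 to 0.791), the counterpart of bacterial L29. Mrpl44, which resembles an RNase III, stood at 2.47 and 1.94 RPKM. The group of 10 had a median log2 ratio of -0.05.

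Around the peptidyl transferase centre, where peptide bonds form, 3 of 4 genes were lower at P28 and 2 had intervals below 1. Of all 9653 genes tested 5864 were lower, and 33.2% of those with read numbers had intervals below 1. A group of 4 is too small to be set apart from that background. Mrpl3, on chromosome 9 (105053239 to 105079888), stood at 3.37 RPKM (91 reads) and 1.97 RPKM (74 reads), a ratio of 0.582 (0.423 to 0.8003), the lowest in the large subunit. Mrpl27 stood at 5.99 and 4.23 RPKM, a ratio of 0.707 (0.508 to 0.983). Mrpl2 (2.08 and 1.61 RPKM) and Mrpl16 (3.38 and 3.80 RPKM) had intervals that included 1. The group's median log2 ratio was -0.33 and its summed ratio 0.783.

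The L7/L12 stalk recruits translation factors to the ribosome. Mrpl12, its flexible arm, which also binds the mitochondrial RNA polymerase, stood at 3.23 and 3.81 RPKM (ratio 1.18, 0.874 to 1.59). Mrpl10, which anchors Mrpl12, stood at 2.50 and 2.80 RPKM (1.12, 0.831 to 1.52), and the 3 stalk genes, Mrpl11 among them, summed to a ratio of 1.14. Mrpl1, of the stalk on the other side of the subunit, stood at 1.02 and 1.10 RPKM. None of these intervals excluded 1, beside 18.3% above 1 and 33.2% below among all genes tested with read numbers. The 5 central protuberance genes, which touch the small subunit, had a median log2 ratio of -0.02, with Mrpl18 at 8.88 and 9.96 RPKM.

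The other large subunit genes whose intervals excluded 1 were lower in 4 of 5 cases. Among all genes tested with read numbers, 3084 had intervals below 1 and 1699 above, and 5 genes are too few to be set apart from that background. Mrpl13 stood at 6.93 and 4.60 RPKM, a ratio of 0.664 (0.492 to 0.895). Mrpl28 (3.31 and 2.14 RPKM, ratio 0.647), Mrpl54 (4.16 and 2.56 RPKM, 0.616) and Mrpl19 (1.24 and 0.876 RPKM, 0.707) were also lower, Mrpl54 on 43 and 37 reads. Mrpl57 was the exception, at 2.94 RPKM (150 reads) and 3.78 RPKM (270 reads), a ratio of 1.29 (1.05 to 1.58). Mrpl53 (5.22 and 5.84 RPKM) and Mrpl34 (6.15 and 5.16 RPKM) had intervals that included 1.

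In the small subunit, the decoding region and body held 2 of the 7 genes above 1. Mrps12, the counterpart of the bacterial protein in which streptomycin resistance arises, stood at 3.32 RPKM (40 reads) and 5.65 RPKM (95 reads), a ratio of 1.70 (1.16 to 2.53). Mrps5, which lines the entry of the messenger RNA, stood at 0.792 RPKM (60 reads) and 1.39 RPKM (147 reads), a ratio of 1.75 (1.29 to 2.41). Mrps16, mutated in a human disorder of mitochondrial translation, stood at 2.91 and 2.44 RPKM (0.840, 0.669 to 1.06). The group of 4 also holds Mrps17 at 4.27 and 3.88 RPKM, and 2 of its genes were higher and 2 lower at P28. Of all genes tested with read numbers 18.3% had intervals above 1, and a group of 4 is too small to be set apart from that background.

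On the platform, Mrps21 (91 and 176 reads) had a ratio of 1.39 (1.07 to 1.80). Mrps6, at 3.93 and 6.10 RPKM, had a ratio of 1.55 (1.13 to 2.14). Mrps18b went the other way, from 2.86 RPKM (53 reads) at P7 to 1.70 RPKM (44 reads) at P28, a ratio of 0.595 (0.389 to 0.904). The 3 Mrps18 genes descend from 1 bacterial protein and sit at different places in the particle, Mrps18a in the large subunit despite its name. Mrps18a stood at 3.94 and 3.15 RPKM and Mrps18c at 6.11 and 6.32 RPKM, and their intervals included 1. Their order, 18c over 18a over 18b, was the same at both ages.

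None of the 7 head genes had an interval that excluded 1, and their median log2 ratio was -0.13. Among all genes tested with read numbers 18.3% lay above 1 and 33.2% below, and 7 genes are too few to be set apart from that. Mrps33 was the most abundant head gene. Outside the head, Mrps28, on chromosome 3 (8802146 to 8923918), stood at 4.40 RPKM (56 reads) and 7.60 RPKM (135 reads), a ratio of 1.73 (1.26 to 2.40), and Mrps36 had a ratio of 1.65 (1.28 to 2.14). Mrps25 was just inside the threshold, at 1.67 and 2.04 RPKM (1.22, 1.01 to 1.47). Mrps27, a pentatricopeptide repeat protein encoded on chromosome 13 (99344786 to 99415562), had the lowest ratio of all 77, with 1.66 RPKM (54 reads) at P7 and 0.792 RPKM (36 reads) at P28, or 0.477 (0.304 to 0.741). Mrps35 stood at 2.93 and 2.32 RPKM (0.794, 0.659 to 0.957), Mrps22, linked to inherited disease, at 1.96 and 2.11 RPKM, and Mrps30, which sits in the large subunit, at 1.50 and 1.13 RPKM.

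**Figure D4:**
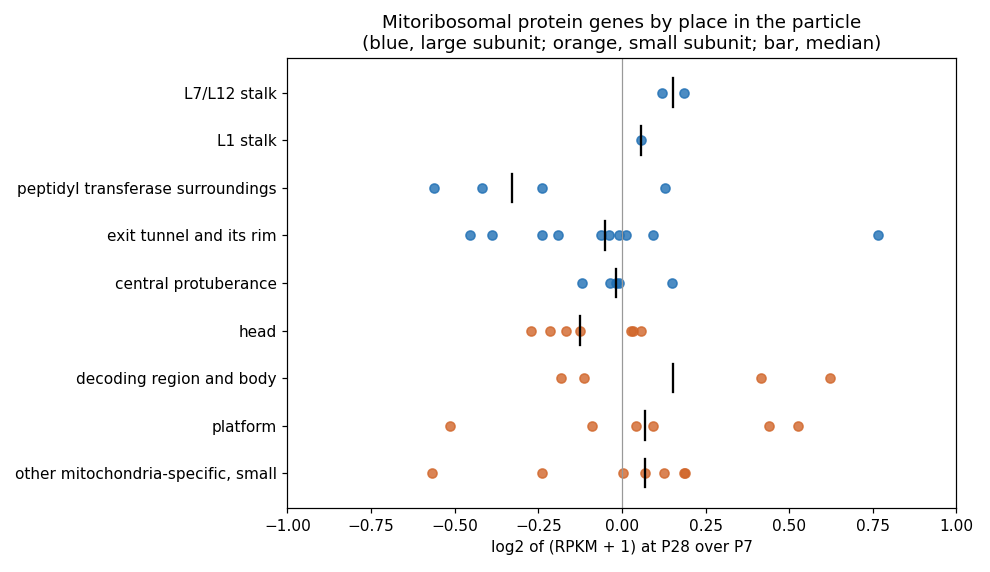
Each point is 1 gene that reached 1 RPKM in a library, set by structural group at its log2 difference of (RPKM + 1), P28 minus P7, with the group median as a black bar. The peptidyl transferase group, of 4 genes, has the lowest median, -0.33, and Mrpl32 at 0.77 is the point furthest right.

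Reads from overlapping genes could not be told apart, since a Nextera XT library keeps no record of strand. Exons of 25 of the 77 genes overlapped another gene, 21 on the opposite and 5 on the same strand. Among the genes with intervals off 1 these were Mrpl13, Mrpl19, Mrpl27, Mrpl47, Mrps6, Mrps18b, Mrps25 and Mrps27. Mrps25 overlaps Nr2c2, which stood at 7.65 and 4.87 RPKM, and Mrpl47 overlaps Ndufb5, a respiratory chain subunit at 11.99 and 18.8 RPKM. Without the 25, intervals lay above 1 for 2 large and 5 small subunit genes, and below for 4 large and 1 small.

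Many mitoribosomal protein genes share their promoter region with a neighbour. The start of a protein-coding gene on the opposite strand lay within 1000 bases of the start of 33 of 77 (42.9%), against 10.9% of 21951 protein-coding genes and 17.1% of the 9128 tested ones. Mrpl32 starts 75 bases from Psma2, a proteasome subunit, which stood at 29.4 and 28.8 RPKM, so the ratio of Mrpl32 was not shared by its neighbour. Mrps12 starts 172 bases from Sars2, the mitochondrial serine tRNA synthetase, at 0.565 RPKM (19 reads) and 0.170 RPKM (8 reads). Mrpl46 and Mrps11 form a pair of their own, with starts 412 bases apart that overlap.

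RefSeq promoter windows of 300 bases, 250 before and 50 after the start (GRCm38.p6), were found for 68 of the 77 genes. The words below were searched on both strands, and a match is a description and no proof of binding. The core that the factor NRF1 binds, taken as a word of 10 bases with any base at the fifth place, was in 13 of 68 windows (19.1%), against 4.78% of all 27025 windows and 11.5% of the 7392 of genes tested. CCGGAAG, the core of ETS factors such as GABPA, was in 24 (35.3%, against 9.12% and 19.9%), 13 of 42 large and 11 of 26 small. AAGATGGCG, a word of the factor YY1, was in 8 (11.8%, against 1.49% and 3.83%).

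GGGGCGGGG, bound by SP and KLF factors, was in 13 (19.1%, against 11.6% of all windows and 23.0% of those of tested genes). CACGTG, the E-box, was in 5 (7.35%, against 7.24% and 10.6%), and TGACGTCA, the cyclic AMP response element, in 2 (2.94%, against 1.88% and 3.46%). These 3 words were no more frequent than in the windows of tested genes. The strict palindromic NRF1 form, part of the NRF1 count, was in 3 (4.41%, against 0.977% and 2.11%).

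Of the 14 genes with intervals off 1 and a RefSeq window, the 7 below are shown because they hold such a word in the stretch printed. The stretches of the other 7, Mrps5, Mrps6, Mrps25, Mrps36, Mrpl28, Mrpl47 and Mrps18b, hold none of the 3 words. Each line runs from 100 bases before to 20 after the RefSeq start, read 5′ to 3′ on the gene's strand, with the NRF1 word, CCGGAAG or AAGATGGCG on either strand in capitals. The first 4 genes were higher at P28 and the last 3 lower. They lie at chr13:14613018-14613137 (Mrpl32, minus strand), chr3:95871495-95871614 (Mrps21, minus), chr14:57826139-57826258 (Mrpl57, plus), chr7:28741802-28741921 (Mrps12, minus), chr9:105053168-105053287 (Mrpl3, plus), chr11:94653691-94653810 (Mrpl27, plus) and chr13:99344686-99344805 (Mrps27, plus).
Mrpl32: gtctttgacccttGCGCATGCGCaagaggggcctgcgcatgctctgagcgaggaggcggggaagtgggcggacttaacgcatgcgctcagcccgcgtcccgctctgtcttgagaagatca
Mrps21: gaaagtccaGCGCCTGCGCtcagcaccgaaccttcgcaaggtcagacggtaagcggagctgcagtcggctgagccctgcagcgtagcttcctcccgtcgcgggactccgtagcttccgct
Mrpl57: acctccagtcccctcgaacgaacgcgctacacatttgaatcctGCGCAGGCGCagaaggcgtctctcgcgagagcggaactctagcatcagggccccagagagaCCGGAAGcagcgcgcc
Mrps12: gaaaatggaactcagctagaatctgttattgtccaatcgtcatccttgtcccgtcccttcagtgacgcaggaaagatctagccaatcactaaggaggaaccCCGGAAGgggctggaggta
Mrpl3: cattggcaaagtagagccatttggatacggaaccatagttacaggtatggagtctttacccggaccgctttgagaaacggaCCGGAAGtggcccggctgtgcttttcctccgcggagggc
Mrpl27: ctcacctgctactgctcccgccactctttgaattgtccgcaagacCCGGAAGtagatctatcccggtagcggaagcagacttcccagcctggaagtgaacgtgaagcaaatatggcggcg
Mrps27: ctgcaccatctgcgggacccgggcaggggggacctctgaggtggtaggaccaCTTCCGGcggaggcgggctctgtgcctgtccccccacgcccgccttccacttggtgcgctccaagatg
Mrpl32 and Mrps21 hold an NRF1 word, Mrpl57 both an NRF1 and an ETS word, and Mrps12, Mrpl3, Mrpl27 and Mrps27 an ETS word. Over all windows, the NRF1 word was in 3 of 8 genes with intervals above 1 and 0 of 6 below, and the ETS word in 3 of 8 and 4 of 6, numbers too small to compare.

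Gabpa stood at 8.05 and 6.45 RPKM (0.801, 0.723 to 0.888) and Yy1 at 6.08 and 4.93 RPKM (0.811, 0.730 to 0.902). Nrf1 stood at 1.76 and 1.42 RPKM, with an interval of 0.590 to 1.09 that included 1. Of the 6 regulators tested of 9 listed, 0 had intervals above 1 and 2 below, a share below 1 close to the 33.2% of all genes tested.

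Other parts of the mitochondrial translation system had medians from -0.17 to 0.03, against -0.08 for all genes, of which 18.3% had intervals above 1 and 33.2% below. Lower at P28 were 5864 of the 9653 genes tested. So were all 6 mitoribosomal proteins with other symbols, 8 of 9 translation factors and 10 of 15 assembly factors. Of the tRNA synthetases 6 of 10 were lower, and of the genes of mitochondrial DNA and RNA 5 of 12. Mitoribosomal proteins with other symbols had a median log2 ratio of -0.17 over 6 genes, with Dap3, a GTP-binding small subunit protein, at 1.28 and 1.22 RPKM. Gadd45gip1, a large subunit protein, stood at 1.25 and 0.828 RPKM (0.663, 0.445 to 0.990), and Ict1, a rescue hydrolase built into the large subunit, at 4.80 and 4.04 RPKM. Translation factors (9 of 14 tested) had a median of -0.13 with 0 above and 2 below, one of them Oxa1l, the membrane insertase, at 5.23 and 3.83 RPKM (0.733, 0.608 to 0.880). Assembly factors (15 of 25 tested) had a median of -0.13 with 1 above and 4 below. Malsu1 stood at 7.67 and 8.29 RPKM, C1qbp at 6.48 and 5.97 RPKM, and Mterf4 at 7.57 and 7.34 RPKM.

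Mitochondrial tRNA synthetases (10 of 17 tested) had a median of -0.03, with 1 above and 3 below. The 1 above was Lars2, at 424 and 981 RPKM, whose message holds a stretch close to the large mitochondrial ribosomal RNA, so its level is uncertain. Genes of mitochondrial DNA and RNA (12 of 17 tested) had a median of 0.03, with 2 above and 1 below. Above were Hsd17b10, a subunit of mitochondrial RNase P, at 12.4 and 17.0 RPKM (1.37, 1.15 to 1.64) and Slirp, an RNA-stabilising protein. Slirp stood at 6.37 and 7.67 RPKM (1.204, 1.04 to 1.40). The 1 below was Trmt10c, at 2.46 and 1.83 RPKM (0.743, 0.580 to 0.954).

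The products of mitochondrial translation join nuclear-encoded respiratory chain subunits, which had higher ratios than the mitoribosomal genes. Of 76 tested, 33 had intervals above 1 and 6 below, against 18.3% and 33.2% of all genes tested, and the median log2 ratio was 0.18, against 0.03 for the small and -0.03 for the large mitoribosomal subunit. With equal totals the counts turned to 3 above and 34 below, against 5.14% and 67.8% of all genes, and the median to -0.19. Their median level was 14.3 RPKM at P7 and 18.4 RPKM at P28. Cytosolic ribosomal protein genes (77 tested) had a median of -0.08, with 17 above and 37 below, at median levels of 85.1 and 82.0 RPKM. These counts also moved with the scaling, to 1 above and 67 below with equal totals and to 30 above and 18 below with the median of all genes set to 0. Respiratory chain and cytosolic ribosomal protein genes both stood at higher levels than the mitoribosomal genes. More reads give narrower intervals, so the counts of neither list are comparable with those of the mitoribosomal genes. The added 1 RPKM also shrinks the log2 ratios of lower genes more. Cytosolic ribosomal proteins took 6.92% of all RPKM at P7 and 5.09% at P28.

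**Figure D5:**
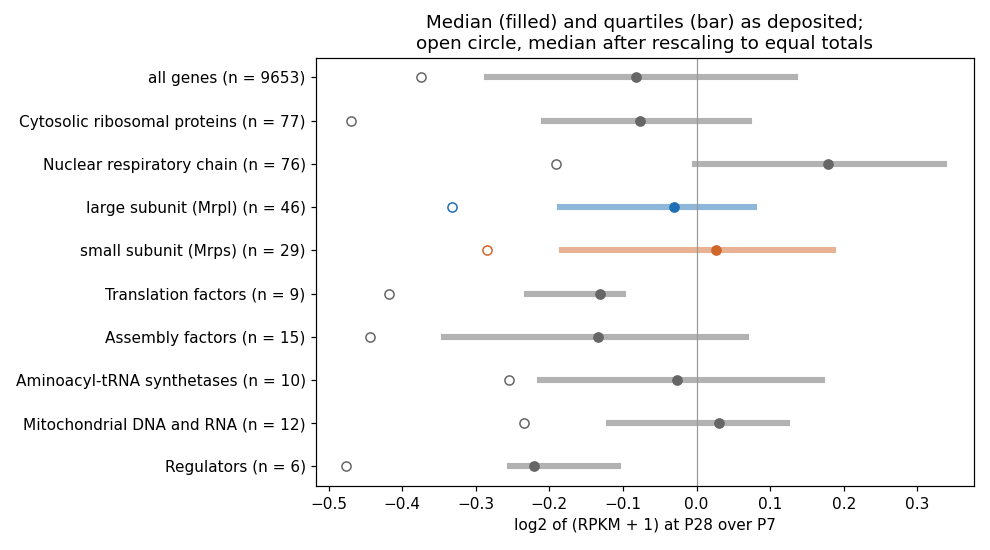
For each gene list, the log2 difference of (RPKM + 1), P28 minus P7, is drawn as its median (filled circle) and quartiles (bar), with the median after rescaling to equal totals as an open circle. The nuclear respiratory chain has the highest median, 0.18, and rescaling puts every list's median below 0.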

How the data were processed

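RNA from type II pneumocytes was measured in 1 P7 and 1 P28 library. Per the labels' protocols, total RNA (QIAamp kit) was made into cDNA (Verso kit), prepared with Nextera XT and sequenced in pairs. The authors deposited RPKM per gene for both libraries in 1 table, as its header names them. The submitters' processing notes name TopHat, TopHat2 version 2.0.9 and builds GRCm38 and mm10, without roles. The sources used here do not give the program, annotation or filters behind the RPKM. No deposited sample column went unused.

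The rule for the members reads symbols alone, but this gene family and the lists were chosen with earlier results of these data known. Log2 ratios, their medians and the 2-fold counts used log2(RPKM + 1) over genes of at least 1 RPKM in a library, and single ratios and their intervals the RPKM as deposited, for all 77 members. Read numbers came from RPKM steps and GENCODE M21 lengths; low values lay on whole steps within 0.05 of a read in 61.5% of 2218 cases at P7 and 59.2% of 2043 at P28. For 64 of 77 members both numbers were whole, and for 13 they were taken from annotated length. Steps were tested on simulated data in which each gene had 1 known length. That test did not cover genes with several lengths or an annotation unlike the one behind the RPKM. Intervals were computed with scipy 1.17.1 and pandas 2.3.3 under Python 3.11.15.

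Genes named by rule were, per subunit, the 4 highest and 4 lowest log2 ratios among members of at least 5 RPKM, the 4 highest and 3 lowest levels, and a fixed set of known members, with up to 3 genes of at least 5 RPKM per partner list. Mrpl57, Mrpl47, Mrpl54, Mrpl28, Mrpl19, Mrps25, Mrps27, Mrps35 and Trmt10c were named after their values were seen because their intervals excluded 1. Mrpl1, Mrpl2, Mrpl16, Mrpl46, Mrps17 and neighbouring genes were named to complete groups or overlaps.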

Additional observations from a re-analysis of the deposited data

How the results depend on the processing

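No paired analysis was possible because each age has 1 library. For the same reason no library could be left out. The count of mitoribosomal protein genes at least 2-fold apart was 0 under every alternative run. All of these kept a pseudocount, and by the plain ratio Mrps27 was 2.09-fold lower. The median of these genes minus that of all genes, 0.055, was -0.025 with no filter on low values. The small subunit median was -0.28 with equal totals and 0.53 with a filter of 5 RPKM, which left 7 small subunit genes and a large minus small difference of -0.57. The large subunit median was -0.33 with equal totals and 0.052 with the median of all genes set to 0. With Mrps30 and Mrps18a counted in the large subunit and Mrps36 left out, the medians were -0.037 large and 0.030 small. Over all genes, those at least 2-fold higher and lower, 114 and 189, became 226 and 530 with a pseudocount of 0.1 RPKM, 39 and 34 with 5 RPKM, 73 and 93 with the filter of 5 RPKM, and 65 and 443 with equal totals. The counts of genes by interval were tried under alternatives chosen after seeing the data. With equal totals, 1 large and 0 small subunit genes lay above 1, and 24 large and 14 small below. With the median set to 0, 4 large lay below. Without overlapping genes, 4 large and 1 small lay below. With members placed by structure, 2 large and 6 small lay above 1, and 8 large and 3 small below. On the scale of log2(RPKM + 1), 7 of the 33 genes named by rule were counted as moved with equal totals and 26 were not. None were under the other settings run on single genes. Among the 26 were Mrps21, Mrps36 and Mrps16, whose plain ratios with equal totals (1.053, 1.254 and 0.638) lay outside the intervals of their deposited ratios. Read numbers of 11 to 360 at P7 limit what single ratios can show.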
